A study of Homo sapiens with 12 samples.

Results

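The steroid receptor immunophilins and HSP90 co-chaperones were followed at the mRNA level as 10 genes chosen by name: FKBP5, FKBP4, PPID, PTGES3, STIP1, CDC37, AHSA1, SGTA, STUB1 and PPP5C. Each symbol matched a single Ensembl identifier of the 63677 identifiers in every count file, and all 10 genes passed the filter of at least 10 counts summed over the 12 libraries. RNA-seq had been done in LNCaP cells, an established human prostate cancer line that depends on androgen. A TALEN, an engineered nuclease, aimed at the start codon of Bag-1L, the longest protein made from BAG1, gave the Bag-1L KO line, which is a single clone, while the TALEN control line carried the vector control. Each line was grown in full medium (FM), or was deprived of hormone for 72 h in charcoal-treated serum and then given either ethanol vehicle (EtOH) or 10 nM dihydrotestosterone (DHT), an androgen, for 16 h. The 6 groups (control and KO in FM, EtOH and DHT) held 2 biological replicates each, and both lines derive from LNCaP. With 1 KO clone, a difference between the lines cannot be told apart from a difference between clones.

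HSP90 holds the ligand-binding domain of steroid receptors in a shape that can take up hormone, and it does so in a cycle run by co-chaperones. STIP1 (HOP) bridges HSP70 and HSP90 early in the cycle, PTGES3 (p23) stabilises the late ATP-bound complex, and an immunophilin with a TPR domain, FKBP5 (FKBP51), FKBP4 (FKBP52) or PPID (cyclophilin 40), or the phosphatase PPP5C (PP5), occupies the TPR-binding site of the mature receptor complex. AHSA1 (Aha1) stimulates the ATPase of HSP90, CDC37 brings protein kinases to it, SGTA is a TPR protein that binds HSP70 and HSP90, and STUB1 (CHIP) is a ubiquitin ligase that acts on chaperone-bound proteins. FKBP5 is itself a classical target gene of androgens and glucocorticoids.

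Counts of each library were divided by a size factor (the median of ratios) to give normalized counts. The libraries held between 20826843 and 30354666 gene counts, so that even STUB1, the least counted of the 10 genes, was read with at least 656 normalized counts in every library. The pair of control EtOH libraries was the most discordant: over 11374 well-counted genes (100 or more normalized counts on average) their median absolute log2 difference was 0.238, against 0.076 to 0.172 in the other groups. Replicate 2 of control EtOH was the higher for 9 of the 10 genes, with a median log2 difference of 0.23. Epithelial identity was checked with fixed marker lists. The 8 luminal markers summed to between 63747 and 125585 normalized counts in every library, the 4 basal markers to between 16.0 and 81.1, the 4 neuroendocrine markers to between 70.0 and 399.0 with ENO2 the highest, the 4 stromal markers to between 394.6 and 1020.7, mostly COL1A1, and the leukocyte and endothelial markers to at most 7.0. Some of these sums differed between the lines: the neuroendocrine sum was 199.0 and 221.7 in control EtOH libraries against 398.9 and 399.0 in KO EtOH libraries, and the basal sum 27.2 and 28.7 in control FM libraries against 60.6 and 81.1 in KO FM libraries. Their part in the differences between lines was not tested. In bulk RNA, fewer cells with a transcript and less transcript per cell cannot be told apart.

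FKBP5 (ENSG00000096060) had the largest change with androgen of the 10 genes. It lies on the minus strand of GRCh37 at chr6:35541362-35696360. In hormone-starved control cells it had 2247 and 2037 normalized counts, in starved KO cells 1450 and 1424. After DHT the control libraries reached 36045 and 33569 and the KO libraries 23628 and 22488. In full medium the control libraries stood at 25795 and 27142 and the KO libraries at 17690 and 18174. The replicates of every group lay apart from those of the next group in the order control DHT, control FM, KO DHT, KO FM, control EtOH and KO EtOH, so that no 2 groups overlapped, and the highest group mean was 24.2 times the lowest.

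**Figure D1:**
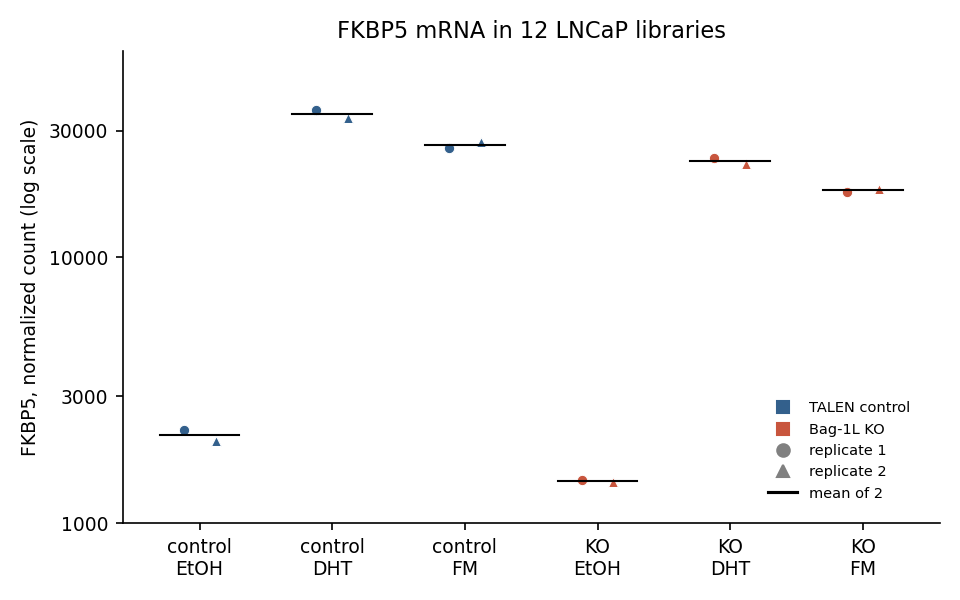
FKBP5 normalized counts (vertical axis, log scale) in the 12 libraries, by group; circles are replicate 1, triangles replicate 2 and bars the mean of 2 replicates. EtOH libraries lie between 1424 and 2247 and all others between 17690 and 36045, and within each condition both KO libraries lie below both control libraries.

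The DNA of FKBP5 is shown because it had the largest change with DHT of the 10 genes. Steroid receptors bind inverted repeats of AGAACA with a spacer, and the full element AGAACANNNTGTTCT was searched over the body of each of the 10 genes on both strands of GRCh37. It matched once in FKBP5 and in none of the other 9 genes. The match lies in intron 5 of the canonical transcript of 11 exons, 126.49 kb from the gene's 5′ end, and is given here with 50 bases on either side on the minus strand, at chr6:35569809-35569923, the element in capitals.
FKBP5 intron 5: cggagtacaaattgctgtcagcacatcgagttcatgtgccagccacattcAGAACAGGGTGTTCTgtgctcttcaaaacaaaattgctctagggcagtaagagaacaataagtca
FKBP5 is by far the longest of the 10 genes, at 154999 bases, and 3.022% of 18100 windows of that length over the genome held at least 1 such match.

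RefSeq promoter sequences (250 bases before to 50 after a start site, GRCh38.p14) were found for 7 of the 10 genes, with 10 start sites. FKBP4, STUB1 and PPP5C had no entry. None of the 10 promoters held the full androgen element, which occurred in 0.003% of 35116 promoters, nor the heat shock element GAANNTTCNNGAA, which occurred in 0.49%. The single arm AGAACA (either strand) occurred in 14.785% of promoters, and in those of FKBP5 and AHSA1 among the 7 genes. FKBP5 has 2 starts of unlike composition, printed here with the arm in capitals. The upstream start, at chr6:35728534-35728833, has a GC content of 55.67% with 3 CpG dinucleotides, and the arm begins at its first transcribed base. The downstream start, at chr6:35688866-35689165, has a GC content of 76.0% with 38 CpG dinucleotides and no arm.
FKBP5 upstream start: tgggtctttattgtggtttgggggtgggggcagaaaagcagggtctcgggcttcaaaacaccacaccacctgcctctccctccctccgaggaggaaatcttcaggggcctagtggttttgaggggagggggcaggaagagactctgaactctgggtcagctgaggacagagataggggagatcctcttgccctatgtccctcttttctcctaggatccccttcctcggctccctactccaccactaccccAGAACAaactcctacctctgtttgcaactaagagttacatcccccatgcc
FKBP5 downstream start: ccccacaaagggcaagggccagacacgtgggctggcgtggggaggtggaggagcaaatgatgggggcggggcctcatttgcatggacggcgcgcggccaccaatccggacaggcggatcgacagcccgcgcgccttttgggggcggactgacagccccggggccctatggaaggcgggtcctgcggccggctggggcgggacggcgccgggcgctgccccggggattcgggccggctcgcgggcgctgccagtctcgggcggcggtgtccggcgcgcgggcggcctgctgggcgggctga
Gene counts do not separate the starts, and which of them was used was not tested.

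Differences were tested with DESeq2 in a fit of all 12 libraries. A gene is said to have risen or fallen when its Benjamini-Hochberg adjusted p over all genes tested was at most 0.05, and to be called when its fold change was also at least 1.5. DHT raised FKBP5 16.2-fold in control (log2 fold change 4.02 ± 0.10, SE, 95% interval of the fold 14.3 to 18.5) and 16.0-fold in KO (95% interval 14.1 to 18.3). The edgeR quasi-likelihood test gave adjusted p-values of 2.69e-14 and 4.26e-14 for these changes. Among the 11374 well-counted genes, FKBP5 ranked 11th by size of the rise in control and 11th in KO. Full medium raised it 12.4-fold over EtOH in control (3.63 ± 0.10) and 12.5-fold in KO (3.64 ± 0.10).

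The level of FKBP5 differed between the lines, while no difference in its response to DHT was detectable. The KO response divided by the control response was 0.988 (95% interval 0.821 to 1.188, adjusted p = 1.0), and the like ratio for full medium was 1.01 (0.839 to 1.215, adjusted p = 0.969). Differences in response within these intervals could not be detected with 2 replicates per group. The level in KO was 0.671 of control in EtOH (95% interval 0.586 to 0.767, adjusted p = 4.8e-07), 0.662 in DHT (0.584 to 0.752, adjusted p = 1.25e-08) and 0.677 in FM (0.597 to 0.769, adjusted p = 1.47e-07), all by DESeq2. These log2 differences of -0.58, -0.59 and -0.56 sat around the fold minimum of 1.5, which is 0.585 on the log2 scale, so that FKBP5 was called in DHT only. With edgeR, or with TMM size factors in DESeq2, the log2 difference in DHT was -0.56 and the call was lost. The adjusted p stayed at or below 0.0329 in all 3 conditions under each of the 18 refits tried, edgeR and each library left out included.

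By the root mean square difference of the 6 group means, centred on the log2(normalized count + 1) scale, the genes nearest to FKBP5 among 11103 genes were CTNNA2 (0.19), SLC2A3 (0.30), TUBA3D (0.32), SNAI2 (0.36) and NDRG1 (0.41). The spread of FKBP5 itself on that measure was 1.83, and 73 genes lay within 1 log2 unit. CTNNA2 encodes a catenin, SLC2A3 a glucose transporter, TUBA3D an alpha tubulin, SNAI2 a zinc finger repressor and NDRG1 a stress-responsive protein. With DHT their fitted log2 changes in control were 3.79 for CTNNA2, 4.39 for SLC2A3, 4.66 for TUBA3D, 3.40 for SNAI2 and 3.94 for NDRG1. The KO to control log2 differences in EtOH, DHT and FM were -1.06, -0.24 and -0.30 for CTNNA2 and -0.26, -0.31 and -0.04 for SLC2A3. In the same order they were -0.70, -1.22 and 0.11 for TUBA3D, -0.95, -0.60 and 0.10 for SNAI2, and -0.63, -1.02 and -0.31 for NDRG1. CTNNA2, SLC2A3 and SNAI2 had low EtOH group means, between 9.7 and 28.7 normalized counts. All 5 genes were chosen on the 6 group means, so their likeness was not tested. TUBA3D counts are uncertain, since tubulin genes have near-identical copies.

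FKBP5 and FKBP4 compete for the same site on receptor-bound HSP90, FKBP4 favouring and FKBP5 restraining hormone binding by the glucocorticoid receptor. FKBP4 (chr12:2904136-2914589, plus strand) had normalized counts of 8545 and 10068 in EtOH, 10392 and 10830 with DHT and 12445 and 11767 in FM in the control line. The KO values were 8862 and 8295 in EtOH, 9953 and 10562 in DHT and 11615 and 11735 in FM. FKBP4 did not pass with DHT in control (1.14-fold, 95% interval 0.989 to 1.315, adjusted p = 0.222) or KO (1.20-fold, 1.037 to 1.379, adjusted p = 0.0883), and rose in FM in control (1.30-fold, adjusted p = 0.00153) and KO (1.36-fold, adjusted p = 0.000162), all by DESeq2. Its KO to control ratio was 0.922 in EtOH, 0.967 in DHT and 0.964 in FM, with adjusted p-values of 0.609, 0.824 and 0.782. Without replicate 2 of control EtOH its DHT change in control reached log2 0.31 with an adjusted p of 0.00735. Its DHT change in KO passed in a fit of only the 2 groups and without either control EtOH library, and its FM rise in control was lost in a fit of only the 2 groups and without control FM replicate 1 (adjusted p up to 0.0827).

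Levels were compared between genes as normalized counts per kb of the canonical transcript. On that scale the ratio of FKBP5 to FKBP4 was 0.260 and 0.200 in starved control libraries against 0.162 and 0.170 in starved KO libraries. With DHT it was 3.436 and 3.071 in control against 2.352 and 2.109 in KO, and in full medium 2.053 and 2.285 against 1.509 and 1.534. FKBP4 was thus the more abundant of the pair in all 4 starved libraries and FKBP5 in the other 8, and the KO libraries lay below the control libraries in each condition. In starved cells FKBP5 made up 2.24% ± 0.41 (SD, n = 2) of the summed level of the 10 genes in the control line and 1.67% ± 0.01 in the KO line. With DHT its share was 24.1% ± 1.8 in control cells against 19.2% ± 1.1 in KO cells, and in full medium 18.2% ± 0.5 against 13.2% ± 0.2. The other 9 genes summed to 25189 ± 3020 per kb in starved control cells and 22636 ± 309 in starved KO cells, and in full medium to 31638 ± 34 and 31574 ± 191. In the DHT groups this sum was 29304 ± 1437 in control and 25951 ± 990 in KO.

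**Figure D2:**
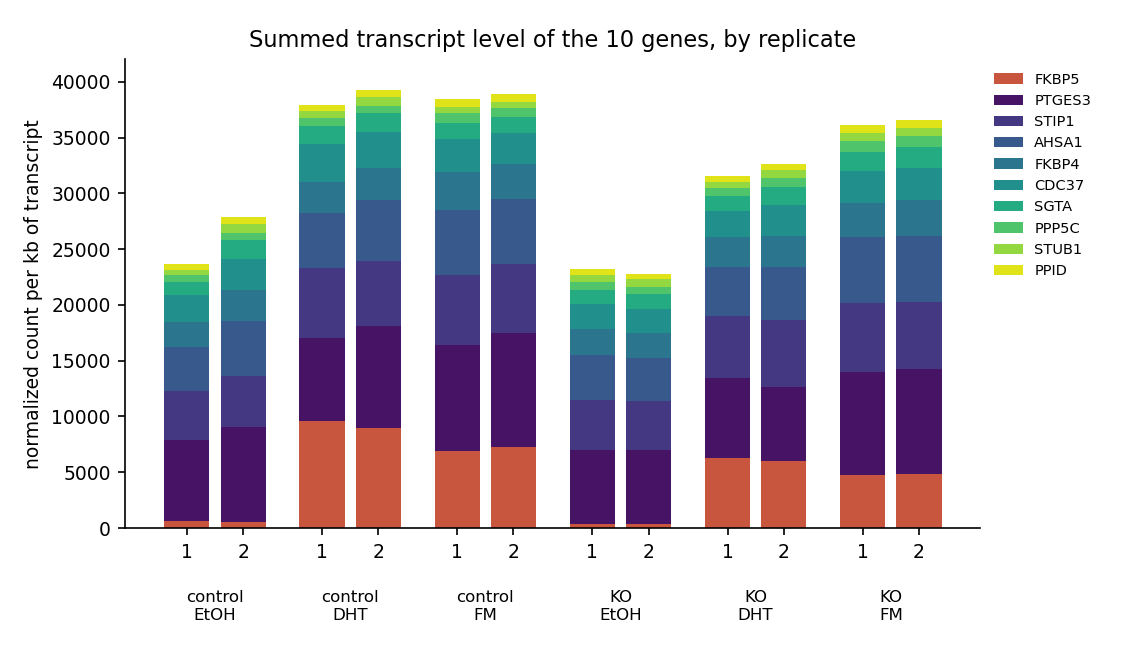
Stacked levels of the 10 genes (vertical axis, normalized count per kb of the canonical transcript) in each library, replicates 1 and 2 side by side within a group. The red FKBP5 segment is 1.66% to 2.53% of the bar in EtOH libraries and 13.1% to 25.4% in DHT and FM libraries, while PTGES3 is the largest segment of every bar but control DHT replicate 1.

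The other immunophilin and the phosphatase of the mature complex showed no DHT call. PPID (chr4:159630279-159644548, minus strand) had 958 and 1095 normalized counts in EtOH, 907 and 1184 with DHT and 1404 and 1393 in FM in the control line, with 1006 and 941, 980 and 980, and 1371 and 1337 in the same order in KO. Both FM groups lay above all starved libraries, with or without DHT. PPID rose in FM 1.36-fold in control (adjusted p = 0.00486) and 1.39-fold in KO (adjusted p = 0.00265), whereas DHT gave 1.02-fold in control (95% interval 0.845 to 1.228) and 1.01-fold in KO (0.835 to 1.215). PPP5C (chr19:46850344-46896238, plus strand) had 1298 and 1315 in EtOH, 1626 and 1437 with DHT and 1846 and 1698 in FM in the control line, and 1473 and 1462, 1523 and 1715, and 1954 and 1970 in KO. It rose in FM 1.36-fold in control (adjusted p = 0.0006) and 1.34-fold in KO (adjusted p = 0.00116) and did not pass with DHT (1.17-fold and 1.10-fold, adjusted p = 0.155 and 0.535). The FM rise of PPID in control was lost in a fit of only the 2 groups and without either control FM library (adjusted p up to 0.0527), and that in KO without KO FM replicate 1 or KO EtOH replicate 2 (up to 0.0758). Of the words of 50 bases in the PPID transcript, 36.6% also occur in another gene, mostly ETFDH on the opposite strand. Its counts are uncertain if the counting was not strand-aware. For PTGES3 the share was 13.7%, with PTGES3P1 and PTGES3P3 among the partners. For FKBP4 it was 11.02%, with ITFG2-AS1 on the opposite strand among the partners. The levels of PTGES3 and FKBP4 per kb, and the FKBP5 to FKBP4 ratio, are uncertain to that extent.

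STIP1 was the only gene of the set besides FKBP5 that rose with DHT in both lines. STIP1 (chr11:63952744-63972015, plus strand) had 9402 and 9835 normalized counts in EtOH, 13504 and 12582 with DHT and 13545 and 13286 in FM in the control line. In KO the values were 9504 and 9312 in EtOH, 11887 and 12852 in DHT and 13158 and 12937 in FM. Its 4 EtOH libraries lay below the other 8 libraries. With DHT the rise was 1.36-fold in control (log2 0.44 ± 0.09, SE, adjusted p = 1.51e-05) and 1.32-fold in KO (0.40 ± 0.09, adjusted p = 0.000199), under the fold minimum, and the KO response was 0.970 of the control response (95% interval 0.816 to 1.151). A fit of only the 2 groups compared gave an adjusted p of 0.109 for DHT in control. Full medium raised it 1.40-fold in control and 1.39-fold in KO. Its KO to control ratio lay between 0.948 and 0.978 in the 3 conditions, with adjusted p-values of at least 0.633 in each.

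The p23 gene and the ATPase activator rose in full medium and did not pass with DHT. PTGES3 (chr12:57057125-57082192, minus strand), the most abundant of the 10 per kb in every group but control DHT, had 13787 and 16092 normalized counts in EtOH, 14024 and 17337 with DHT and 18050 and 19468 in FM in the control line, against 12529 and 12553, 13600 and 12635, and 17661 and 17801 in KO. It rose 1.26-fold in FM in control (adjusted p = 0.0235) and 1.41-fold in KO (adjusted p = 0.000281), and DHT gave 1.05-fold in each line with intervals from 0.886 to 1.239. Its KO to control ratio of 0.839 in EtOH and 0.837 in DHT did not pass (DESeq2 adjusted p-values of 0.211 and 0.14). The DHT difference passed when either control EtOH library or control DHT replicate 1 was left out (lowest adjusted p 0.0146). AHSA1 (chr14:77924213-77935815, plus strand) had 5261 and 6634 in EtOH, 6550 and 7249 with DHT and 7768 and 7742 in FM in the control line, and 5412 and 5156, 5844 and 6288, and 7847 and 7921 in KO. DHT gave a log2 change of 0.21 in control (adjusted p = 0.227) and 0.20 in KO (adjusted p = 0.344), and without control EtOH replicate 2 the change in control passed (log2 0.39, adjusted p = 0.00117). Full medium raised it 1.30-fold in control (adjusted p = 0.00588) and 1.49-fold in KO (adjusted p = 1.35e-05), the nearest of the 9 genes to the fold minimum. With edgeR the KO change was log2 0.59 and passed it. The FM rises of PTGES3 and AHSA1 in control were each lost in 4 of 18 refits: only the groups compared, without either control FM library and without control EtOH replicate 1 (adjusted p up to 0.21 for PTGES3 and 0.0992 for AHSA1).

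Of the 9 genes other than FKBP5, only CDC37 differed between the lines in DHT at an adjusted p of at most 0.05 (DESeq2). CDC37 (chr19:10501809-10530797, minus strand) had 3822 and 4580 normalized counts in EtOH, 5498 and 5202 with DHT and 4764 and 4509 in FM in the control line, and 3613 and 3546, 3840 and 4488, and 4601 and 4773 in KO. The control DHT libraries were the 2 highest of the 12. CDC37 rose with DHT in control (1.27-fold, adjusted p = 0.02, and 0.0498 by edgeR). That rise was lost in a fit of only the 2 groups and without control EtOH replicate 1 or control DHT replicate 1 (adjusted p up to 0.323). DHT gave 1.16-fold in KO (adjusted p = 0.268), and the difference between the responses did not pass (ratio 0.913, 95% interval 0.727 to 1.147, adjusted p = 1.0). In DHT its KO to control ratio was 0.778 (95% interval 0.663 to 0.914, adjusted p = 0.0183). With edgeR that adjusted p was 0.0609. A fit of only the 2 groups, or leaving out either control DHT library or KO DHT replicate 1, lost it too, the highest adjusted p being 0.308.

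SGTA, a co-chaperone of HSP70 and HSP90, and STUB1, which marks misfolded clients for degradation, had the widest spread in control EtOH. SGTA (chr19:2754713-2783360, minus strand) had 2631 and 3866 normalized counts there, and STUB1 (chr16:730224-732870, plus strand) 656 and 1075. In KO EtOH the values were 2835 and 2937 for SGTA and 855 and 881 for STUB1. With DHT SGTA had 3577 and 3740 in control and 2888 and 3586 in KO, and STUB1 851 and 1017 in control and 757 and 970 in KO. Neither passed with DHT in either line (DESeq2 adjusted p-values from 0.548 to 0.991). Without replicate 2 of control EtOH both passed with DHT in control, at log2 0.48 for SGTA (adjusted p = 0.00182) and 0.51 for STUB1 (adjusted p = 0.01), and without replicate 1 their log2 values were -0.08 and -0.20.

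In full medium the lines differed by the adjusted p of DESeq2 for STUB1 and not for SGTA. STUB1 had 717 and 675 normalized counts in control FM against 1016 and 984 in KO FM, a KO to control ratio of 1.44 (95% interval 1.101 to 1.876, adjusted p = 0.0438 by DESeq2). With edgeR the adjusted p was 0.057. The DESeq2 difference lay under the fold minimum and was not a call. It no longer passed when any of the 4 FM libraries or either KO EtOH library was left out. SGTA had 3358 and 3107 in control FM and 3848 and 4162 in KO FM, a ratio of 1.24 (0.995 to 1.542, adjusted p = 0.171), which passed in a fit of only the 2 groups and without either control EtOH library. SGTA and STUB1 have the highest GC contents of the 10 transcripts, 61.9% and 63.88%, and over all genes tested the median log2 difference between KO FM and control FM was 0.36 for the 2169 genes with a transcript GC content of at least 60% and -0.07 for the others. For FM against EtOH in control these medians were -0.45 and 0.06. The part of GC content in the STUB1 and SGTA values was not tested. STUB1 also shares 39.9% of its words of 50 bases with JMJD8 on the opposite strand. SGTA rose in FM in KO (1.39-fold, adjusted p = 0.0136), which was lost without KO FM replicate 2 or either KO EtOH library (adjusted p up to 0.14), and was at 0.995-fold in control (adjusted p = 0.981), but the difference between these responses did not pass (ratio 1.395, 95% interval 1.023 to 1.902, adjusted p = 0.282).

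**Figure D3:**
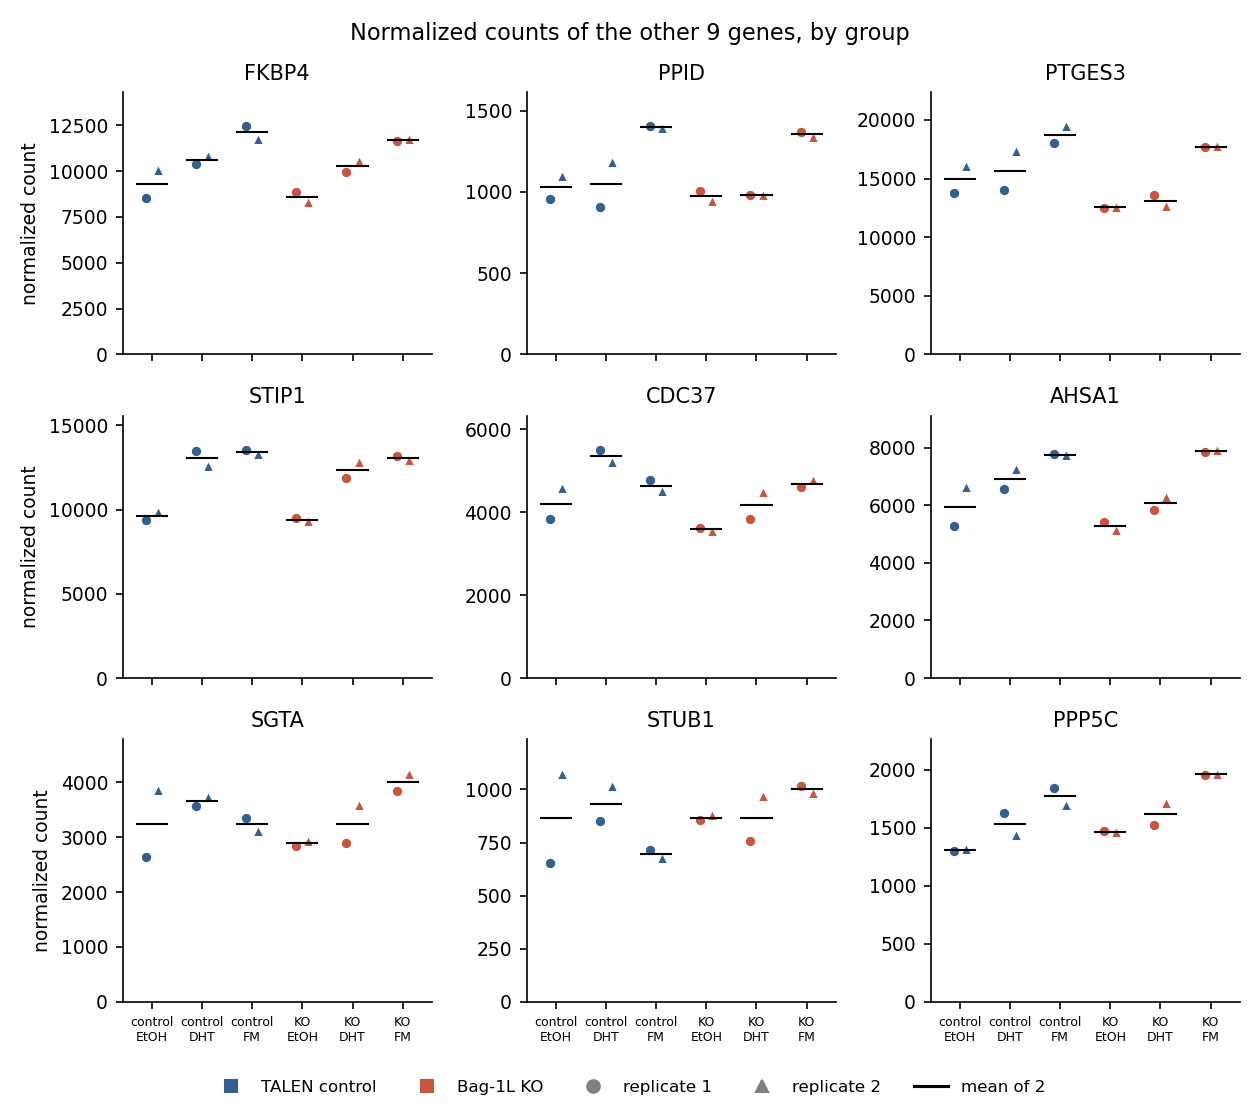
Normalized counts (vertical axes, from 0) of the 9 genes other than FKBP5 in the 12 libraries; circles are replicate 1, triangles replicate 2 and bars the mean of 2 replicates, control in blue and KO in red. The highest group mean is at most 1.502 times the lowest for each of these genes, and the control EtOH replicates of SGTA and STUB1 lie far apart.

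Counted over the 10 genes, the DHT comparison in control had 1 call, FKBP5, against 11.4% of 17535 genes tested, and 3 genes rose (FKBP5, STIP1 and CDC37), against 11.2%. None fell. In KO 1 was called, against 7.68%, and 2 rose (FKBP5 and STIP1), against 8.02%. The median log2 change of the 10 genes was 0.20 in control and 0.18 in KO, against -0.02 and -0.01 over all genes tested, and without FKBP5 the other 9 lay between 0.03 and 0.44 in control cells and between -0.01 and 0.40 in KO cells. Without replicate 2 of control EtOH, 7 genes rose in control and the median was 0.43. Without replicate 1 of that group, 2 rose and the median was 0.07.

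Full medium moved more of the set. In control 1 gene was called, against 21.3% of 18549 genes tested, and 7 of the 10 rose, against 18.8% of all genes. In KO 1 was called, against 19.3%, and 9 rose, all but STUB1, against 17.3%. None fell in either line. The genes that did not rise in control, CDC37, SGTA and STUB1, have the highest GC contents of the set (59.95%, 61.9% and 63.88%). Among genes with a known transcript GC content, the median log2 change in control was -0.45 at 60% or more and 0.06 below. In KO these medians were -0.11 and 0.01. The part of GC content in the numbers that rose was not tested. The median log2 change of the 10 was 0.38 in control and 0.47 in KO, against -0.01 over all genes in each line. In control, 3 to 8 genes rose when a library was left out, 3 without FM replicate 1 and 4 without FM replicate 2. A fit of only the 2 groups compared gave 3, and without EtOH replicate 1 STUB1 fell (log2 -0.63, adjusted p = 0.000449). In KO the number was 6 without EtOH replicate 2. The DHT and FM comparisons of a line share their EtOH libraries.

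**Figure D4:**
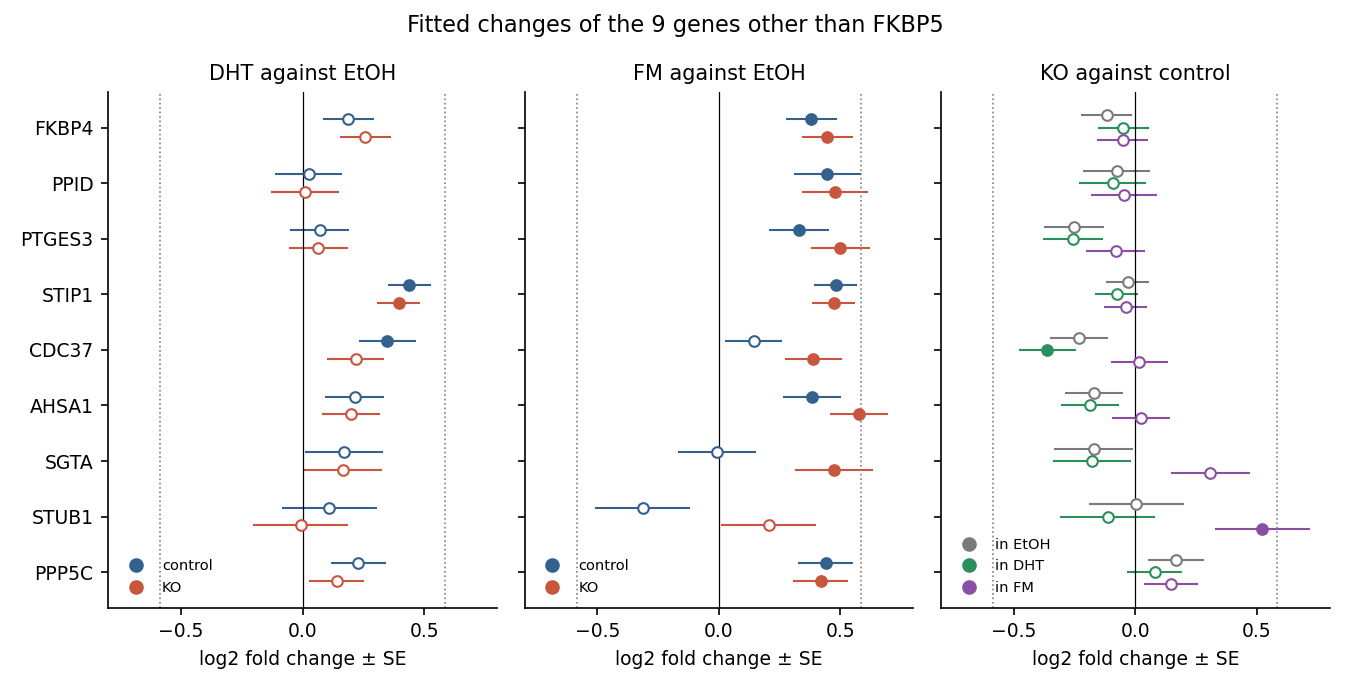
Fitted log2 fold changes ± SE (horizontal axes) of the 9 genes other than FKBP5 by DESeq2, for DHT and FM against EtOH in each line and for KO against control in each condition; filled points have an adjusted p of at most 0.05 and dotted lines mark a fold of 1.5. Most filled points are in the FM panel, where 6 of 9 genes rose in control and 8 of 9 in KO, and no point passes the dotted lines.

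Between the lines, 0 of the 10 genes were called in EtOH (5.11% of 16521 genes tested), where DESeq2 gave an unadjusted p under 0.05 to 2 genes and edgeR called 0. FKBP5 fell, against 5.1% of genes that did. In DHT 1 was called, FKBP5, against 7.98% of 16014, and 2 fell (FKBP5 and CDC37), against 8.73%. With edgeR 0 were called and 1 fell. In FM 0 were called, against 8.01% of 15000, with an unadjusted p under 0.05 for 2 genes and 0 calls by edgeR. FKBP5 fell, against 9.24% of genes, and STUB1 rose, against 9.27%. The median log2 difference of the 10 was -0.14 in EtOH, -0.15 in DHT and -0.01 in FM, against -0.02, -0.02 and -0.01 over all genes. Without EtOH replicate 1 of control 5 of the 10 fell in KO in EtOH and the median was -0.32, and without its replicate 2 only FKBP5 fell and the median was 0.01.

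For the difference in response between the lines, 0 of the 10 genes passed for DHT by the adjusted p or with the fold minimum, against 0.438% and 0.408% of 13478 genes tested, and none had an unadjusted p under 0.05. For FM 0 passed, against 1.53% and 1.39% of 12971 genes tested, and 1 gene (SGTA) had an unadjusted p under 0.05. edgeR also called 0 in each case. The 95% intervals of the ratio of DHT responses (KO over control) reached from 0.633 to 1.34 for STUB1, the widest, and from 0.816 to 1.151 for STIP1, the narrowest. Without replicate 1 of control EtOH, SGTA (log2 0.73) and STUB1 (0.83) were called for FM, and CDC37 (0.37) and AHSA1 (0.35) lay under the fold minimum. SGTA and STUB1 have the highest GC contents of the set. Among genes with a known transcript GC content, the median log2 difference in FM response was 0.32 at 60% or more and -0.04 below. The part of GC content in these values was not tested.

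Other genes of the chaperone pathway were taken from named lists. The first held 11 chaperone and partner genes of HSP90, HSP70 and HSP40: HSP90AA1, HSP90AB1, HSPA8, HSPA4, HSPA1A, HSPA1B, HSPH1, DNAJB1, DNAJA1, DNAJA2 and ST13. With DHT in control 6 of these rose (HSP90AA1, HSPA8, HSPH1, DNAJB1, DNAJA1 and DNAJA2) and none fell, and 3 rose in KO. In FM 6 rose and 1 fell in each line. Over all genes tested, 11.2% rose with DHT in control and 8.02% in KO, and 18.8% and 17.3% rose in FM. Those that fell numbered 1534 and 977 of 17535 with DHT, and 2998 and 2669 of 18549 in FM. The median log2 change of the 11 genes with DHT was 0.35 in control and 0.22 in KO. HSPH1, the HSP110 nucleotide exchange factor, was called with DHT in control (1.61-fold, adjusted p = 1.06e-10) and in FM in control (1.85-fold) and KO (1.58-fold). The heat-inducible HSPA1B was called lower in FM in control (0.663-fold, adjusted p = 0.000528), and lost the call without EtOH replicate 2 (log2 -0.32). Its counts are uncertain, since HSPA1A is nearly identical. None of these 11 genes was called between the lines, against 5.11% of all genes tested in EtOH, 7.98% in DHT and 8.01% in FM. By the adjusted p of DESeq2, HSPA1B was higher in KO in FM (1.41-fold, 0.0107) and ST13 lower (0.824-fold, 0.0453). In that comparison 9.27% of all genes were higher and 9.24% lower.

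Among 21 other HSP90 co-chaperone genes tested, 2 rose with DHT in control and 1 in KO, with 0 calls by DESeq2 and by edgeR, where an unadjusted p under 0.05 was found for 3 and 1. Over all genes tested with DHT in control and KO, 11.2% and 8.02% rose and 11.4% and 7.68% were called. In FM 6 rose and 3 fell in control and 7 rose and 1 fell in KO. Over all genes tested in FM in control and KO, 18.8% and 17.3% rose, and 2998 and 2669 of 18549 fell. The calls in control were FNIP2 (2.11-fold, adjusted p = 4.14e-09), a partner of folliculin that slows the HSP90 ATPase, CHORDC1 (1.65-fold, adjusted p = 9.65e-07) and, lower, the membrane-anchored FKBP8 (0.485-fold, adjusted p = 5.68e-06). FKBP8 lost its call without EtOH replicate 2 (log2 -0.54). FNIP2 was also called in KO (1.57-fold, adjusted p = 0.000835). Of the 21, 0 changed between the lines in EtOH or DHT by adjusted p with either tool, with 1 and 5 at an unadjusted p under 0.05. In FM TSC1 was lower in KO (0.774-fold, adjusted p = 0.0304 by DESeq2 and 0.0742 by edgeR), where 9.24% of all genes tested were lower.

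FKBP and cyclophilin genes outside the set formed the last list. Of 17 tested, 3 rose and 1 fell with DHT in control and 2 rose and 1 fell in KO. Over all genes tested in control and KO, 11.2% and 8.02% rose, and 1534 and 977 of 17535 fell. The calls named by size in control were FKBP14 (1.78-fold, adjusted p = 2.18e-07) and PPIB (1.58-fold, adjusted p = 5.65e-07), both prolyl isomerases of the endoplasmic reticulum. In KO with DHT 6 were lower and 1 higher than in control, against 8.73% and 1222 of 16014 over all genes tested. The calls there were PPIC (0.555-fold, adjusted p = 4.35e-06) and FKBP14 (0.632-fold, adjusted p = 9.71e-05), both by DESeq2, against 7.98% of all genes. FKBP10 was called lower in FM in control (0.596-fold), and PPIH (1.68-fold) and PPIB (1.63-fold) higher in FM in KO. PPIB lost its DHT call without control EtOH replicate 1 (log2 0.51), and FKBP14 its KO call without control DHT replicate 1 (-0.55).

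Several of the receptor genes that these chaperones serve were read at low levels. NR3C1, which encodes the glucocorticoid receptor, had 8 raw counts over the 12 libraries with at most 2 in any, within the 3 counts taken as the floor of detection. PGR had between 1.1 and 38.4 normalized counts, highest in the KO EtOH libraries (38.4 and 36.7 against 10.5 and 7.0 in control EtOH). NR3C2, the mineralocorticoid receptor gene, was called lower in FM than EtOH in KO (0.55-fold, adjusted p = 2.38e-05).

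BAG1, the targeted gene, encodes an exchange factor of HSP70 and was read in every library. Its normalized counts were 1702 and 2703 in control EtOH against 1191 and 1103 in KO EtOH, 2199 and 2631 against 1076 and 1114 in DHT, and 2117 and 1968 against 1452 and 1576 in FM. The KO to control ratio was 0.521 in EtOH (adjusted p = 6.35e-06), 0.453 in DHT (adjusted p = 7.71e-09) and 0.741 in FM (adjusted p = 0.0682), and without control EtOH replicate 2 the EtOH difference was log2 -0.57, under the fold minimum. Gene counts do not separate Bag-1L from the shorter Bag-1 forms, so they check the label only in part.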

How the data were processed

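Per the labels and the study's methods, the authors prepared stranded poly(A) libraries, sequenced them on an Illumina HiSeq instrument, aligned reads to GRCh37 with TopHat2 and counted reads per Ensembl gene with HTSeq. The deposited values are these raw counts, 1 table per library, with 5 tallies of unassigned reads that were left out here. The submitters' processing notes list CASAVA 1.7, TopHat2 2.0.11 and HTSeq 0.5.3p3. The Ensembl release and the strand setting of HTSeq are not given in the sources used here. Reads that align to several places or overlap several genes were not counted, which lowers the counts of genes that share sequence or overlap.

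Genes with fewer than 10 counts in all were left out (26156 kept). DESeq2 (version 1.42.0, R 4.3.3) was fitted to all 12 libraries with a coefficient per group and median-of-ratios size factors, as the study's methods name DESeq2 with these thresholds, in place of edgeR (version 4.0.16), which was an alternative. Intervals are Wald 95% intervals. The fits were also run on counts simulated from the fitted means and spread. Such counts do not hold the discordance of the control EtOH pair, so that run cannot show how the fits handle it. Nothing says that replicates came from separate cultures beyond the label of biological replicate, so p-values measure the spread between these libraries. At 3 counts the floor of detection was 0.0988 to 0.144 CPM (counts scaled to a common library total), for counting error alone. Lengths, GC contents and positions came from GENCODE on GRCh37, and the 50-base words shared between transcripts were counted within it. The other alternatives were TMM size factors in DESeq2, no filter, at least 10 counts in every library, only the groups compared, the replicate number as a block, no fold minimum, a fold of at least 2, and each library left out in turn.

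The 10 genes and the pathway lists were chosen with earlier results of these data known. The rule for naming genes was all 10, the targeted gene, NR3C1 and a further receptor gene that is not reported here, the 5 genes nearest to FKBP5, and from each list up to 2 called genes with the largest rise and up to 2 with the largest fall per comparison. NR3C2, PGR and ESR1 completed the receptor list, in which ESR1 had at most 3.4 normalized counts. PGR was also called in KO for DHT and for FM against EtOH, and in KO against control in EtOH. AHSA2 and PECAM1 matched no identifier by symbol and were not used here.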

Additional observations from a re-analysis of the deposited data

How the results depend on the processing

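The number of the 10 genes called moved with the processing as follows. With no fold minimum it was 3 and 2 for DHT in control and KO, 7 and 9 for FM in control and KO, and 1, 2 and 2 for KO against control in EtOH, DHT and FM. A fold of at least 2 gave 0 in KO against control in DHT, as did edgeR, TMM size factors in DESeq2 and a fit of only the groups compared, since FKBP5 lies at the fold minimum there. For FM in KO, edgeR and TMM size factors each gave 2, AHSA1 being the added gene. With a library left out the number ranged from 1 to 2 for FM in control and in KO, from 0 to 1 for KO against control in each condition, and from 0 to 2 for the difference in FM response. Without control EtOH replicate 1 it was 2 for FM in control and for the difference in FM response, and without control EtOH replicate 2 it was 1 for KO against control in EtOH. The cause was not tested. None of the 10 genes, BAG1 or the named list genes changed sign in a comparison where it was called, and the calls of FKBP5 for DHT and FM were kept under all of them.

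Replicate numbers were not taken to pair libraries. The correlation of the replicate differences between groups over genes ranged from -0.415 to 0.692 over 15 pairs of groups, with 6 above 0.1. With the replicate number as a block, 1 gene was called for DHT and for FM in each line and for KO against control in DHT, and 0 in the other 4 comparisons, as without it. The block moved 2 of the other named calls, HSPA1B for FM in control (log2 -0.58) and PGR for KO against control in EtOH (2.14), below the threshold.

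With 2 libraries per group, intervals of single genes span roughly the size of the changes seen outside FKBP5, so a gene that did not pass is not shown to be equal between groups. A library left out leaves a group with 1 library, which is assumed to vary like the other groups. Protein levels and receptor complexes were not measured here.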
